A study of Mus musculus with 18 samples.

Results

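The sensory neuropeptides described here are the products of 8 precursor genes, Calca, Calcb, Tac1, Adcyap1, Gal, Npy, Vip and Sst, chosen by gene symbol from a table of 51290 genes, and all 8 were in the table. Their transcripts were counted by bulk sequencing of poly(A) RNA from 18 mouse samples, 6 in each of 3 groups. Normal nerve was trigeminal nerve of Nf1 flox/flox PostnCre- genotype. Plexiform neurofibroma, a benign nerve sheath tumour, was trigeminal nerve of Nf1 flox/flox PostnCre+ genotype. The malignant peripheral nerve sheath tumours (MPNST) were PostnCre+ and carried Arf flox/flox besides Nf1 flox/flox, with no body site in the labels. All groups carried the floxed Nf1 allele. Nf1 encodes neurofibromin, an inhibitor of Ras signalling, and the Postn promoter drives Cre in cells that express periostin, among them cells of the Schwann lineage. Strain and age are not given in the labels. The comparison of tumour stages therefore also compares sampled tissues and, for MPNST, Arf genotypes. Malignancy, Arf genotype and sampled tissue cannot be told apart in the MPNST group.

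Neuropeptides are cut from longer precursor proteins in the secretory pathway, stored in dense-core vesicles and released from axon terminals, where they act on G protein-coupled receptors of neighbouring cells. In the trigeminal ganglion the peptidergic nociceptors make calcitonin gene-related peptide (CGRP) and substance P, which dilate vessels and sensitise pain pathways. Calca encodes αCGRP and, by alternative splicing, calcitonin, and Calcb encodes βCGRP. Tac1 encodes substance P and neurokinin A. Adcyap1 encodes PACAP and Vip encodes the related vasoactive intestinal peptide. Gal (galanin) and Npy (neuropeptide Y) are low in uninjured sensory neurons and are known to be induced by axotomy, as are Vip and Adcyap1. Sst encodes somatostatin, an inhibitory peptide of a small class of sensory neurons and of many central interneurons.

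RefSeq's GRCm38.p6 promoter table had an entry for 7 of the 8 genes, all but Calcb, with 300 bases for each start. Stretches are shown because 3 of these genes carry letters of the cAMP response element, the site of the factor CREB, before their start. The table gave 8 windows for these genes, Adcyap1 having 2. The letters TGACGTC, searched on both strands, occurred in 3 of the 7 genes (Adcyap1, Vip and Sst) and in 3.21% of the 32851 promoter windows of that table. The full palindrome TGACGTCA, which contains them, occurred in 1 of the 7 (Sst) and in 1.79% of windows. The letters TATAAA, searched on both strands, occurred in 2 of the 7 (Adcyap1 and Vip) and in 13.6% of windows. Below, 30-base stretches are given 5′ to 3′ on the gene's strand with the TGACGTC or TGACGTCA letters in capitals. The capitals begin 91 bases before the start in Adcyap1, 79 in Vip and 48 in Sst. The Sst window overlapped annotated exons by 114 bases, against 0 in the Vip window and in the first Adcyap1 window, which holds the stretch shown. Whether these exon bases cover the Sst letters was not checked. The stretches are at chr17:93198915-93198944 (plus strand) for Adcyap1, chr10:5639128-5639157 (plus strand) for Vip and chr16:23890874-23890903 (minus strand) for Sst, all in GRCm38.p6.
Adcyap1: gactaggatgcTGACGTCttttactgatac
Vip: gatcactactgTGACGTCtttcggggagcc
Sst: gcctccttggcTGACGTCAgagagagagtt

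The 250 bases before the start are given for the most abundant of the genes, Calca, at chr7:114636358-114636607 (minus strand), and for Vip, which had no count in some trigeminal libraries and over 20 CPM in others, at chr10:5638968-5639217 (plus strand). Capitals again mark the letters searched for. None was in the Calca stretch, and the Vip stretch held both TGACGTC and TATAAA. These letter matches describe the windows only and show no binding.
Calca upstream: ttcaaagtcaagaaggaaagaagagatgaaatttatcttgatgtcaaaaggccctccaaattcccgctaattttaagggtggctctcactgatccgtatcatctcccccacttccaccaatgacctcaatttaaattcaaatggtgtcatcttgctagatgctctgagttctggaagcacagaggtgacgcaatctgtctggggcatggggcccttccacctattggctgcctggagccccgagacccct
Vip upstream: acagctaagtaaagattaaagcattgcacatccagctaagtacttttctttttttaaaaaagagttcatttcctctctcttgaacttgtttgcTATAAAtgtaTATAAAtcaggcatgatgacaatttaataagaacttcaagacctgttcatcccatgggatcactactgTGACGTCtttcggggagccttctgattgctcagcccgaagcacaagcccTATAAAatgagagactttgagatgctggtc

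Depth was similar across the groups, from 13886399 to 23652959 counts per library. Values below are CPM, counts per 1000000 counts of the library. Samples are separate libraries, and except for the MPNST, which came from 6 mice, nothing says that they came from separate animals, so p-values may measure technical spread. The targeted gene Nf1 ranged over 82.4 to 161 CPM among nerve libraries, 66.7 to 91.3 CPM among neurofibroma libraries and 28.1 to 58.6 CPM in MPNST 1 to 5. The library labelled MPNST 6 had 123 CPM of Nf1, within the nerve range and above MPNST 1 to 5. The cause of this level was not tested. In MPNST 2 the 10 most abundant genes took 54.4% of counts, which lowers the CPM of its other genes. After TMM scaling over all 18 libraries, Tac1 in MPNST 2 moved from 2.03 to 5.32 CPM and Gal from 0.55 to 1.44. The CPM values of MPNST 2 below lack this scaling. As a check of tissue, the Schwann cell markers Sox10 and S100b were detected in all 18 libraries. All 10 Schwann cell markers were, so detection alone does not separate the libraries. Their summed level was 4586 to 12322 CPM in nerve, 10386 to 18063 in neurofibroma and only 70.8 to 1699 in MPNST. The trigeminal libraries also held RNA of neuronal cell bodies: the 21 sensory neuron markers summed to 13796 to 23025 CPM in nerve and 14840 to 19454 in neurofibroma, with Pou4f1, a nuclear factor of sensory neurons, at 80.0 to 188 CPM.

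Among the trigeminal libraries the peptide genes kept a steep order. Levels between genes are compared per kilobase of the median coding transcript length in GENCODE M21. Calca was highest in nerve at 803 ± 188 CPM per kb (SD, n = 6), Tac1 followed at 222 ± 45.2, then Calcb at 62.9 ± 10.8 and Adcyap1 at 43.2 ± 14.2. The order Calca, Tac1, Calcb, Adcyap1 held in nerve 1 to 5 and in all 6 neurofibroma libraries. In nerve and in neurofibroma, Calca, Tac1 and Calcb did not overlap one another. Calcb and Adcyap1 overlapped, and annotated Adcyap1 transcripts run from 318 to 3392 bases, so their order depends on the length used. Gal (6.97 ± 1.71), Npy (1.67 ± 1.44) and Vip (1.27 ± 2.22 CPM per kb) had the lowest means in nerve, with Npy and Vip overlapping. Sst had a mean of 24.5 ± 44.8 CPM per kb but a median of 6.99, since nerve 6 was at 116, and it stood below Gal in nerve 1, 2, 3 and 5. In neurofibroma 3 to 6 Vip stood above Gal, and in nerve 6 Sst stood above Calcb and Adcyap1.

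**Figure D1:**
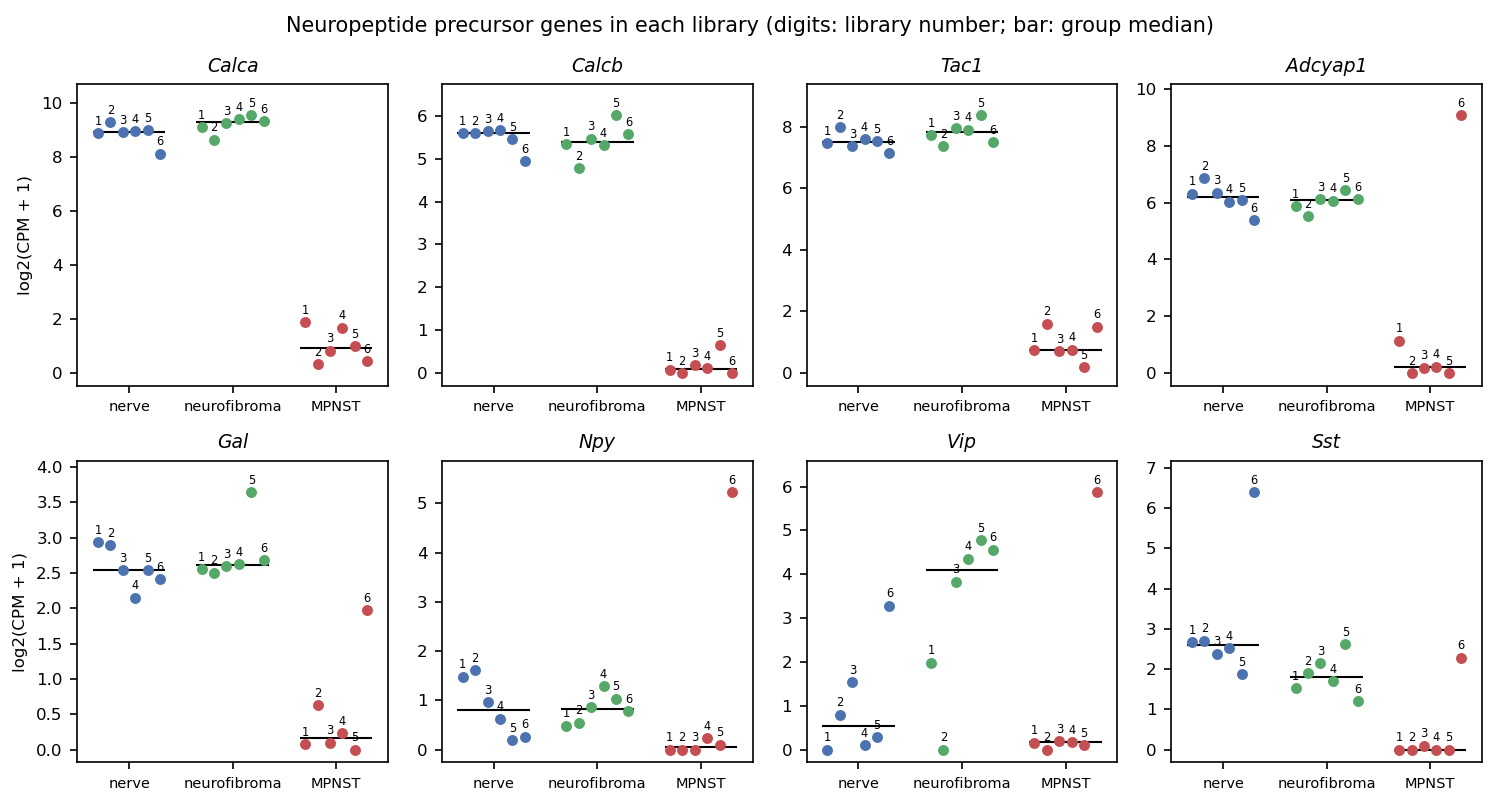
Each panel plots one neuropeptide precursor gene as log2(CPM + 1) in every library of normal nerve, neurofibroma and MPNST, with library numbers above the points and a bar at the group median. Calca, Calcb and Tac1 sit near the bottom in all 6 MPNST libraries. Among the MPNST libraries, the one labelled MPNST 6 stands alone for Adcyap1, Npy and Vip. Adcyap1 is also present in every trigeminal library and Vip in most of them. Sst in nerve 6 stands above all other libraries.

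Neurofibroma was first compared with nerve, which asks whether sensory peptide transcripts change in trigeminal nerve with the PostnCre deletion. None of the 8 genes passed the test (edgeR quasi-likelihood, Benjamini-Hochberg adjusted p under 0.05 over all genes), beside 13.9% of the 16464 genes tested, 7.94% higher and 6.00% lower. At an unadjusted p under 0.05 there were 2, Vip and Sst, and DESeq2 and limma-voom also called 0. The median log2 change of the 8 was 0.11, against -0.02 over all genes tested. In bulk tissue, fewer cells of a type and less RNA per cell cannot be told apart.

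Calca measured 472, 620, 478, 489, 503 and 277 CPM in nerve 1 to 6, and 542, 397, 610, 665, 738 and 639 CPM in neurofibroma 1 to 6. Between 4229 and 12656 counts lay behind each value, and the groups overlapped, with nerve 6 and neurofibroma 2 lowest in their groups. The fitted log2 change was 0.33 (SE 0.18) with an edgeR adjusted p of 0.232. Tac1, the substance P gene, had 176, 253, 165, 193, 184 and 141 CPM in nerve and 211, 164, 246, 239, 330 and 180 CPM in neurofibroma. Its log2 change was 0.29 (SE 0.18, edgeR adjusted p = 0.278). Neurofibroma 5 was highest for both genes, and the other 5 neurofibroma libraries lay within the nerve range of Tac1.

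Calcb had 47.6, 47.6, 49.2, 49.7, 42.7 and 29.7 CPM in nerve and 39.3, 26.6, 43.3, 39.0, 63.5 and 46.6 CPM in neurofibroma. The group means were 44.4 ± 7.60 and 43.1 ± 12.1 CPM (SD, n = 6), with a log2 change of -0.05 (SE 0.18, edgeR adjusted p = 0.873). Adcyap1, the PACAP gene, had 79.1, 115, 80.6, 64.8, 66.8 and 40.5 CPM in nerve and 57.9, 45.2, 68.3, 66.4, 86.0 and 68.4 CPM in neurofibroma. Its values overlapped over most of their range, and the log2 change was -0.19 (SE 0.21, edgeR adjusted p = 0.560). Gal was at 3.45 to 6.68 CPM in nerve and 4.67 to 5.42 in 5 neurofibroma libraries, with 11.5 CPM in neurofibroma 5. Its log2 change was 0.26 (SE 0.25, edgeR adjusted p = 0.505). Npy stayed at or below 2.07 CPM in nerve and 1.43 in neurofibroma (log2 change -0.25, SE 0.57, edgeR adjusted p = 0.793).

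The 2 CGRP genes were also set against each other inside each library, a ratio that does not depend on library size. The ratio of Calca to Calcb was 9.92, 13.03, 9.71, 9.85, 11.8 and 9.31 in nerve and 13.8, 14.9, 14.1, 17.1, 11.6 and 13.7 in neurofibroma. In 5 of 6 neurofibroma libraries it lay above the highest nerve library, and only neurofibroma 5 fell inside the nerve range. The mean log2 ratio was 3.82 ± 0.18 in neurofibroma and 3.39 ± 0.19 in nerve (SD, n = 6), a difference of 0.42 (exact two-sided permutation p = 0.00649 over 924 splits, the only ratio tested). Leaving out each library in turn gave differences from 0.37 to 0.49. The Calca count covers calcitonin and CGRP transcripts together, and Calca and Calcb are near-identical over the CGRP sequence, so Salmon's division of shared reads between them is uncertain.

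**Figure D2:**
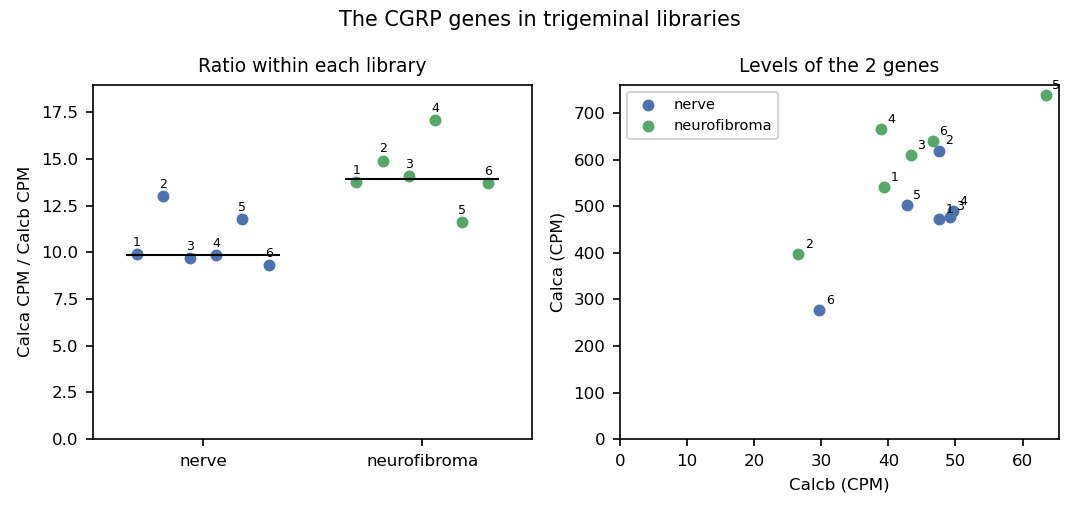
The left panel plots the ratio of Calca CPM to Calcb CPM in each nerve and neurofibroma library with a bar at the median, on an axis from 0, and the right panel plots the 2 levels in CPM. The neurofibroma ratios run from 11.6 to 17.1 and the nerve ratios from 9.31 to 13.03, with neurofibroma 5 the one tumour library within the nerve range.

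Calca and Tac1 were also set beside the mean level of the 21 sensory neuron markers, as log2(CPM + 1) of the gene minus that mean, as a description with no test. For Calca the offset was -0.36 to 0.03 among nerve libraries and -0.02 to 0.70 among neurofibroma libraries. For Tac1 it was -1.65 to -1.26 in the first and -1.29 to -0.67 in the second. The offsets overlapped between groups for both genes. Of the 21 sensory neuron markers 0 rose and 2 fell by edgeR (4 at an unadjusted p under 0.05, and 2 and 7 lower by DESeq2 and limma-voom), with a median log2 change of -0.27. Of the 9 peptidergic nociceptor markers 0 were called by edgeR (2 at an unadjusted p under 0.05, and 1 lower by each of DESeq2 and limma-voom). Of 10 Schwann cell markers 5 rose and 0 fell by edgeR (7 at an unadjusted p under 0.05, and 7 higher by each of DESeq2 and limma-voom). Beside these marker counts, edgeR called 7.94% of all genes higher and 6.00% lower.

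Vip and Sst gave the widest spread among trigeminal libraries. Vip was listed at 0, 0.74, 1.90, 0.07, 0.21 and 8.71 CPM in nerve, from 0 to 133 counts. In neurofibroma it had 2.94, 0, 13.2, 19.5, 26.3 and 22.6 CPM. Neurofibroma 3 to 6 lay above every nerve library, while neurofibroma 2 had no count, which allows up to 0.173 CPM at 3 counts. With all libraries the log2 change was 2.87 (SE 1.20, edgeR adjusted p = 0.121). Without nerve 6, the highest nerve library, it was 4.56 (SE 1.18, edgeR adjusted p = 0.0173), past the threshold, beside 11.8% of genes called higher in that fit.

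Of the 7 markers of enteric and parasympathetic neurons, many of which use VIP as a transmitter, only Nos1 and Slc5a7 could be tested, and 0 were called by edgeR (2 at an unadjusted p under 0.05, with 1 higher and 1 lower by DESeq2 and 1 lower by limma-voom). The list's summed level was 34.9 to 94.2 CPM in nerve and 34.3 to 52.8 in neurofibroma, with 2 to 5 and 2 to 6 markers above 0, and most of it was Nos1. Chat, the acetylcholine-synthesising enzyme, was at 0 in nerve 1 to 5 and in neurofibroma 1 and 2, and at 0.06 to 0.70 CPM in neurofibroma 3 to 6, from 3, 1, 12 and 2 counts. Slc18a3, the vesicular acetylcholine transporter, was at 0.22 to 0.47 CPM in neurofibroma 3 to 6 and at 0.05 and 0 CPM in neurofibroma 1 and 2, from at most 8 counts. Slc5a7, the choline transporter, was at 1.48 to 3.07 CPM in neurofibroma 3 to 6 and at 0.85 and 0.40 in the other two. The part of such neurons in the Vip values was not tested. Among 10 axotomy-induced genes tested 0 rose and 1 fell by edgeR, beside 7.94% and 6.00% of all genes. At an unadjusted p under 0.05 there were 3, and DESeq2 and limma-voom each called 2 lower. Atf3 was at 4.98 to 45.4 CPM in nerve and 4.74 to 19.6 in neurofibroma, and Sprr1a at 0.20 to 4.23 and 0.20 to 1.16.

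Sst had 5.35, 5.51, 4.21, 4.73, 2.66 and 83.6 CPM in nerve and 1.89, 2.71, 3.43, 2.26, 5.13 and 1.31 CPM in neurofibroma. The log2 change was -2.66 (SE 0.86, edgeR adjusted p = 0.0564) with nerve 6 and -0.70 (adjusted p = 0.134) without it. Markers of central nervous system cells were high in nerve 6. Gad1, which makes the transmitter GABA, was at 181 CPM there and at 0.35 to 1.28 in the other nerve libraries, Gad2 at 99.1 against 0 to 0.25, and Slc32a1, the GABA transporter of vesicles, at 83.2 against 0 to 0.20. All 9 central neuron markers were above 1 CPM in nerve 6, and the list summed to 814 CPM there against 391 to 504 in nerve 1 to 5. All 7 oligodendrocyte and astrocyte markers were above 1 CPM too, summing to 2273 CPM against 101 to 562, with Mog at 43.5 CPM. The 11 sympathoadrenal markers, among them the catecholamine enzymes Th and Ddc, summed to 405 CPM in nerve 6 against 15.01 to 23.4 in nerve 1 to 5, with Th at 171 against 4.60 to 11.05 and Ddc at 101 against 1.26 to 3.74. Calca, Calcb, Tac1 and Adcyap1 were at their lowest nerve values in the same library, as was the summed sensory neuron list at 13796 CPM. The part of these other cells in these values was not tested.

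MPNST was then compared with neurofibroma, to ask how far peptide transcripts are kept in malignant tumours. Calca, Calcb and Tac1 were at or below 2.68 CPM in every MPNST library. Calca, Calcb, Tac1 and Gal fell, 4 of the 7 genes tested, beside 16.8% of 16537 genes called lower and 25.3% called higher, and Npy was too low to be tested. The same 4 were the genes whose groups did not overlap, beside 16.2% of all genes with non-overlapping lower values. The median log2 change of the 7 was -2.94, against 0.22 over all genes tested. Markers of sensory neurons fell with them: 13 of 21 fell and 0 rose by edgeR (15 at an unadjusted p under 0.05), and the list's summed level was 84.8 to 289 CPM in MPNST 1 to 5. Of 10 Schwann cell markers 6 fell and 0 rose by edgeR, here and against nerve. Of 9 peptidergic nociceptor markers 7 fell. The other 2 were Kit and Gfra3, the latter at 0.13 to 11.9 CPM in MPNST 1 to 5 and at 35.9 in the library labelled MPNST 6, within the neurofibroma range of 26.3 to 53.1. The part of the loss of neuronal RNA in these changes was not tested.

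Calca had 2.68, 0.25, 0.77, 2.19, 1.01 and 0.37 CPM in MPNST 1 to 6, from 6 to 51 counts. Every neurofibroma library was above 396 CPM, and Calca fell by 8.83 on the log2 scale (SE 0.54, edgeR adjusted p = 1.149e-06). Calcb was detected in 4 MPNST libraries at 0.06 to 0.58 CPM, while MPNST 2 and the library labelled MPNST 6 had no count, which allows 0.127 and 0.157 CPM at 3 counts. Calcb fell by 8.15 (SE 0.78, edgeR adjusted p = 2.183e-05). Tac1 had 0.68, 2.03, 0.63, 0.69, 0.14 and 1.83 CPM and fell by 7.10 (SE 0.83, edgeR adjusted p = 8.168e-05). For these 3 genes the library labelled MPNST 6 lay within the range of the other MPNST libraries.

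Gal had 0.06, 0.55, 0.07, 0.17, 0 and 2.93 CPM in MPNST, below all neurofibroma libraries, and fell by 2.94 (SE 0.99, edgeR adjusted p = 0.0316). That call was lost without neurofibroma 5 (adjusted p = 0.0663), MPNST 3 (0.0514) or MPNST 4 (0.0554). Adcyap1 had 1.20, 0, 0.14, 0.17 and 0 CPM in MPNST 1 to 5 and 539 CPM in the library labelled MPNST 6, against a highest neurofibroma value of 86.0. Vip had 0.11, 0, 0.14, 0.13 and 0.07 CPM in MPNST 1 to 5 and 57.8 in the library labelled MPNST 6. Npy had 0, 0, 0, 0.17 and 0.07 CPM in MPNST 1 to 5 and 36.6 there, and Sst had 1 count in MPNST 1 to 5 together and 3.88 CPM there. So 1 library held nearly all reads of the last 4 genes in the MPNST group. With it the log2 changes were 0.38 (SE 1.77, edgeR adjusted p = 0.879) for Adcyap1, -0.61 (SE 1.70, 0.795) for Vip and -2.08 (SE 1.25, 0.195) for Sst.

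Without the library labelled MPNST 6, 7 of the 7 genes tested were lower by edgeR, beside 23.9% of all genes. Adcyap1 then fell by 7.59 (adjusted p = 2.139e-05), Vip fell by 6.99 (0.00115) and Gal fell by 4.13 (0.00372). Sst was also called (adjusted p = 2.476e-05), and its pooled CPM was 259 times higher in neurofibroma, with a 95% exact counting interval of 46.2 to 10268 from 1 count against 301. Without MPNST 2, 3 and the library labelled MPNST 6, 8 of 8 were lower, beside 30.9% of all genes, and Npy entered the test at -3.19 (adjusted p = 0.0045). Salivary markers summed to 381922 CPM in MPNST 2 and muscle markers to 55013 CPM in MPNST 3, and Calca, Calcb and Tac1 stayed lower with or without both.

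**Figure D3:**
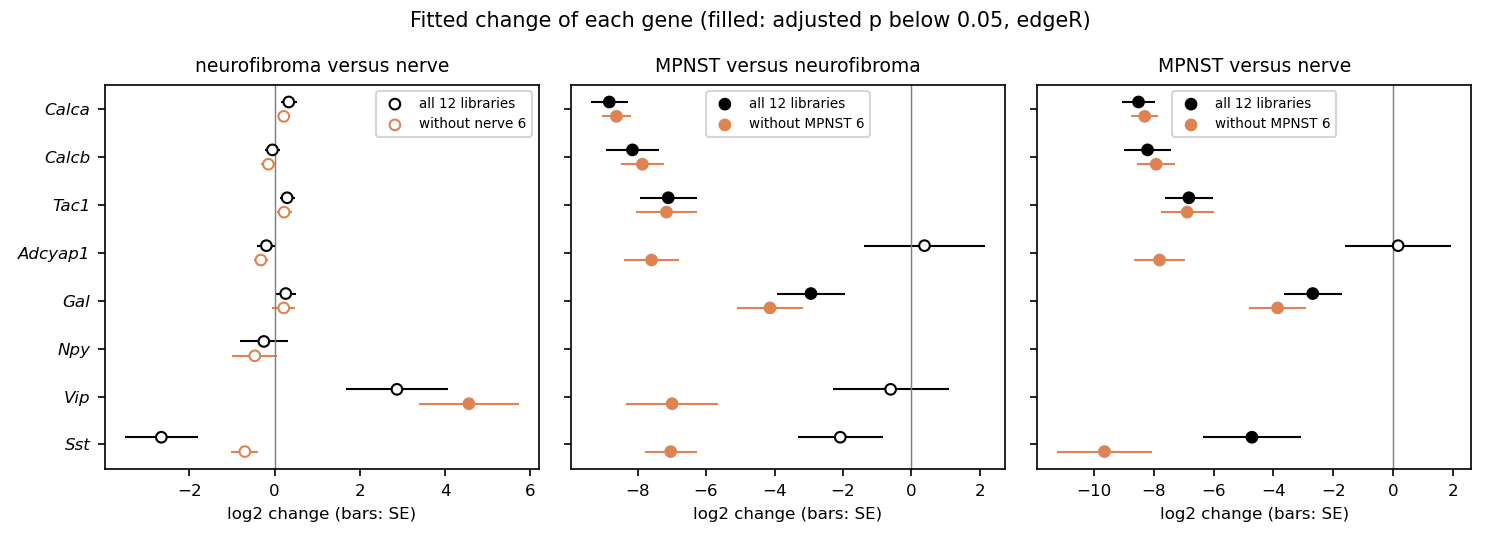
Each panel plots the edgeR log2 change of the genes with its SE for one comparison, from all 12 libraries in black and without one library in orange, filled where the adjusted p was below 0.05. Calca, Calcb and Tac1 lie between -8.83 and -6.82 in both MPNST comparisons with all libraries, and Adcyap1 moves from 0.38 to -7.59 against neurofibroma when the library labelled MPNST 6 is left out.

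Against nerve, MPNST gave 5 lower genes of 6 tested, with Npy and Vip untested, beside 18.4% of 16384 genes called lower and 27.6% called higher. The 4 genes whose groups did not overlap were Calca, Calcb, Tac1 and Gal, beside 15.5% of all genes with non-overlapping lower values. Both comparisons share the MPNST libraries, so they are set side by side and not counted as separate evidence. Calca fell by 8.50 (SE 0.55, edgeR adjusted p = 1.729e-06), Calcb fell by 8.20 (SE 0.77, 1.865e-05) and Tac1 fell by 6.82 (SE 0.81, 8.044e-05). Gal fell by 2.69 (SE 0.97, edgeR adjusted p = 0.0387), and the call was lost without any one nerve library (adjusted p from 0.0529 to 0.0671) or without MPNST 1, 3 or 4. Sst fell by 4.72 (SE 1.62, edgeR adjusted p = 0.0319), but by 2.82 (adjusted p = 0.116) without nerve 6, which held most nerve Sst reads, and the call was also lost without MPNST 1, 2, 3 or 5. Adcyap1 was at 0.17 (SE 1.78, edgeR adjusted p = 0.947). Without the library labelled MPNST 6, 6 of 6 were lower, beside 25.1% of all genes, and without nerve 6 there were 3, beside 17.2%. In the first of these fits Sst, with 1 count in MPNST 1 to 5 together, could pass the filter only through nerve. Only a lower call was open to it there.

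The library labelled MPNST 6 also held transcripts of sympathoadrenal cells, the noradrenaline-making neurons and chromaffin cells, many of which contain neuropeptide Y. Th, the first enzyme of catecholamine synthesis, was at 1736 CPM against 0 to 0.77 in MPNST 1 to 5. Dbh, which makes noradrenaline, was at 705 CPM against 0 to 0.17. Ddc, the next enzyme of that pathway after Th, was at 622 CPM against 0 to 1.22. All 11 markers of the list were above 0, and they summed to 5432 CPM, against 2.37 to 13.4 CPM and 4 to 9 markers in MPNST 1 to 5. The sensory neuron list summed to 8325 CPM there, with Prph at 688 and Nefl at 1498, which autonomic neurons also express, while Pou4f1 and Scn10a were at 0.10 CPM each. Pancreatic acinar markers summed to 3854 CPM, and the islet hormones Ins1, Ins2 and Gcg were at 8.75, 12.3 and 5.97 CPM. The part of these tissues in the Adcyap1, Npy, Vip and Sst values was not tested, and the library's label could not be settled from the files.

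**Figure D4:**
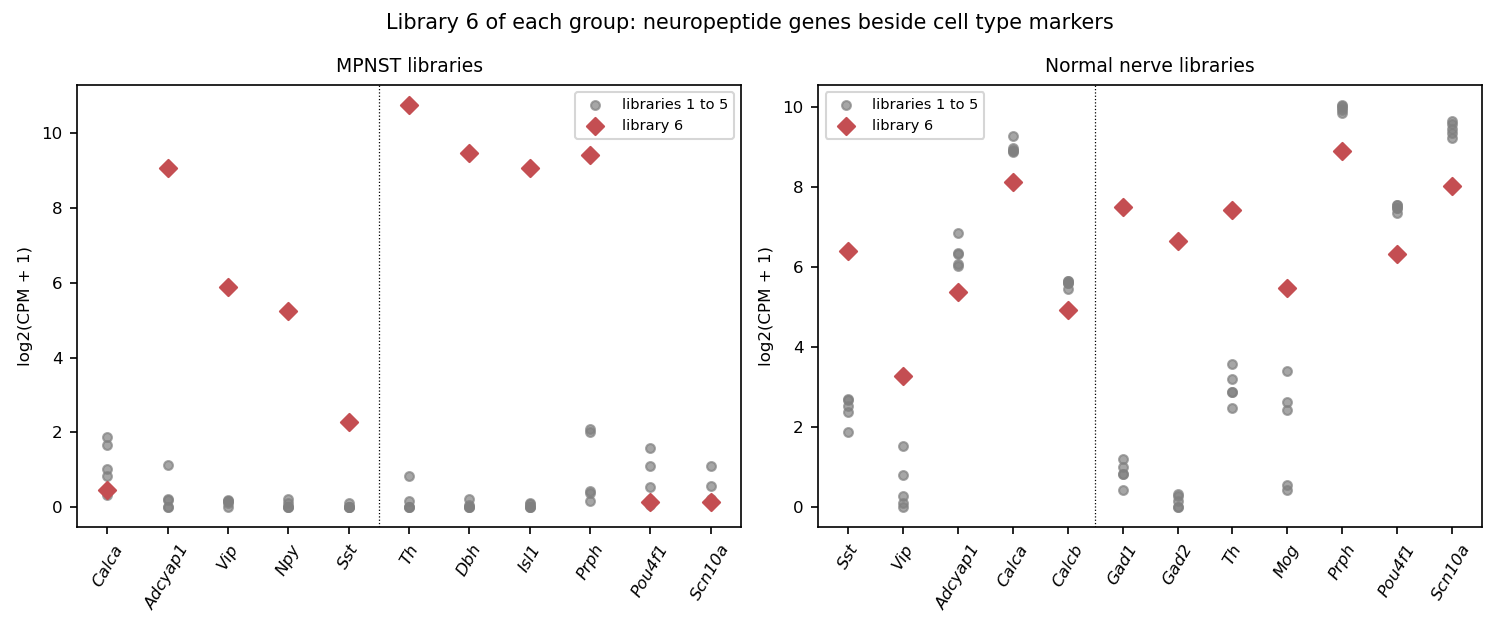
The panels plot log2(CPM + 1) of neuropeptide genes (left of the dotted line) and cell type markers (right of it) in MPNST and in nerve, with library 6 of each group as a red diamond and libraries 1 to 5 in grey. The library labelled MPNST 6 stands apart for Adcyap1, Vip and Npy and for Th, Dbh and Isl1 but not for Calca, Pou4f1 or Scn10a, and nerve 6 stands apart for Sst and for Gad1, Gad2, Th and Mog.

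Receptors for these peptides did not follow one direction. The list held 23 receptor and accessory genes, of which 13 could be tested in each comparison. Between neurofibroma and nerve 0 were called by edgeR (2 at an unadjusted p under 0.05), with 0 by DESeq2 and 1 lower by limma-voom. Between MPNST and neurofibroma 4 of 13 were higher and 4 lower, beside 25.3% and 16.8% of all genes. Between MPNST and nerve 3 were higher and 5 lower, beside 27.6% and 18.4%. The counts of higher receptors were thus near the shares over all genes. The median log2 change of the 13 was 0.11 against neurofibroma and -0.41 against nerve, beside 0.22 over all genes in each.

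Calcrl encodes the receptor subunit that binds CGRP together with RAMP1, or adrenomedullin together with other RAMPs, and is abundant in vessels. It was at 6.39 to 13.6 CPM in nerve, 6.65 to 13.01 in neurofibroma and 38.5, 2.45, 41.6, 67.3, 18.3 and 43.9 CPM in MPNST 1 to 6. All MPNST libraries but MPNST 2 were above both trigeminal groups, and Calcrl rose by 1.97 against neurofibroma (SE 0.44, edgeR adjusted p = 0.00441) and by 1.89 against nerve (SE 0.46, 0.00579). Its partner Ramp1 had 11.98, 2.49, 12.5, 1.98, 13.3 and 0.996 CPM in MPNST and 2.30 to 7.38 in neurofibroma, with no call (log2 change 1.14, SE 0.61, edgeR adjusted p = 0.148). Ramp1 was called higher against neurofibroma without the library labelled MPNST 6 (1.38, edgeR adjusted p = 0.0310) and by limma-voom (1.31, 0.0364). Against nerve its change was 0.92 (edgeR adjusted p = 0.411), and it was called without nerve 6 (2.11, 0.0487) and by limma-voom (2.23, 0.0143). Ramp1 was chosen after its values were seen, as were Adcyap1r1, Npy1r and Vipr2.

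Tacr1, the substance P receptor, was at 0.17 to 0.92 CPM in neurofibroma and at 17.2, 1.10, 1.55, 2.83, 15.6 and 0.47 CPM in MPNST. It was high in MPNST 1 and 5 and within the neurofibroma range in the library labelled MPNST 6. It rose by 3.61 against neurofibroma (SE 0.84, edgeR adjusted p = 0.00525) and by 3.16 against nerve (SE 0.98, 0.0202). Vipr1, a receptor of VIP and PACAP, was at 0.05 to 0.52 CPM in nerve and 0.33 to 2.08 in neurofibroma. In MPNST 1 to 6 it had 4.62, 5.67, 0.63, 3.52, 1.51 and 14.5 CPM, and it rose by 3.27 against neurofibroma (SE 0.81, edgeR adjusted p = 0.00731) and by 5.01 against nerve (SE 0.90, 0.00107). Calcrl, Tacr1 and Vipr1 stayed called in both comparisons without the library labelled MPNST 6.

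Adcyap1r1, the PACAP receptor, had 43.5, 2.88, 28.8, 1.46 and 27.1 CPM in MPNST 1 to 5 and 518 CPM in the library labelled MPNST 6, the library that also held Adcyap1. Its call against neurofibroma (log2 change 3.28, SE 1.08, edgeR adjusted p = 0.0286) was lost without that library (1.15, adjusted p = 0.136). In nerve it was at 118 CPM in nerve 6 and 9.02 to 13.8 in nerve 1 to 5. The receptors that fell against neurofibroma were Galr1 for galanin, Tacr3 for neurokinin B, and Npy1r and Npy2r for neuropeptide Y. Galr1 was at 1.54 to 3.02 CPM in neurofibroma and listed at 0 in 4 MPNST libraries, and fell by 5.07 (SE 0.83, edgeR adjusted p = 7.512e-04). Npy2r was at 6.12 to 10.7 CPM in neurofibroma and 0 to 2.67 in MPNST, and fell by 4.04 (SE 1.06, edgeR adjusted p = 0.0101). Without the library labelled MPNST 6 Npy2r fell by 6.45. Npy1r was at 11.2 to 13.8 CPM in neurofibroma and 0.05 to 3.94 in MPNST, and fell by 2.15 (SE 0.66, edgeR adjusted p = 0.0210). Tacr3 fell by 4.38 (SE 0.87, edgeR adjusted p = 0.00225). Against nerve the log2 changes were -5.53 for Galr1, -4.19 for Npy2r, -2.39 for Npy1r and -5.55 for Tacr3, and all 4 passed the edgeR test, as did Vipr2, a second VIP receptor, at -1.72 (edgeR adjusted p = 0.0228). The size of these falls moved with 1 library: Galr1 fell by 6.39 without MPNST 3 and Tacr3 fell by 5.401 without MPNST 2 against neurofibroma, and Tacr3 fell by 4.52 without nerve 6 against nerve.

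**Figure D5:**
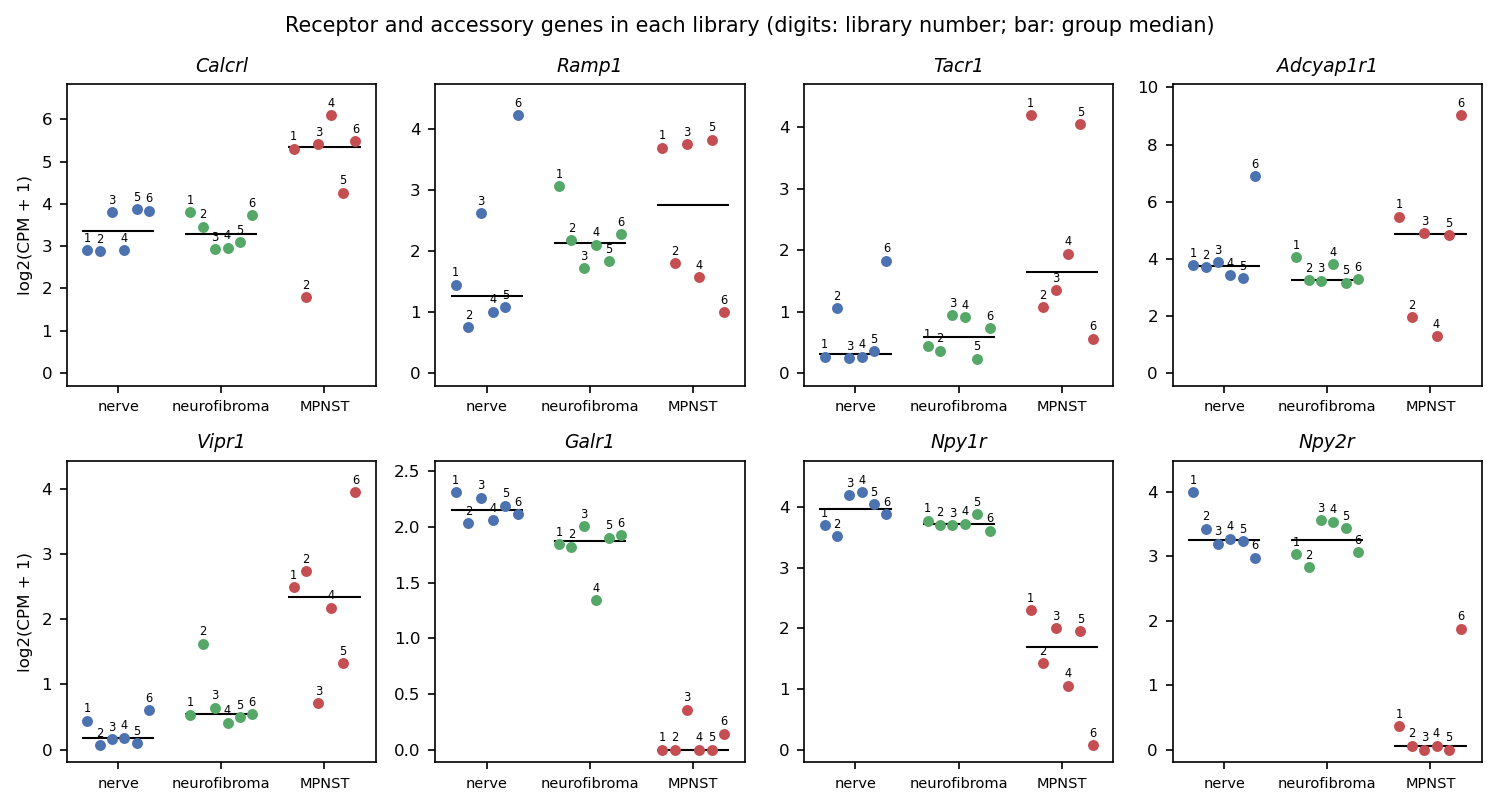
Each panel plots one receptor or accessory gene as log2(CPM + 1) in every library, with library numbers and a bar at the group median. Calcrl is higher in 5 of 6 MPNST libraries than in any trigeminal library, Adcyap1r1 peaks at 518 CPM in the library labelled MPNST 6, and Galr1 and Npy2r lie lower in MPNST.

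The genes that process peptide precursors had more calls in neurofibroma than the other 3 pathway lists, which had 1 in all. Of 18 genes 6 fell and 0 rose by edgeR, beside 6.00% and 7.94% of all genes (12 at an unadjusted p under 0.05, with 9 lower by DESeq2 and 10 lower and 1 higher by limma-voom). Ptprn, a membrane protein of dense-core vesicles, had 203, 257, 207, 189, 217 and 214 CPM in nerve and 123, 124, 147, 105, 171 and 106 CPM in neurofibroma. The groups did not overlap, and Ptprn fell by 0.74 (SE 0.13, edgeR adjusted p = 0.00459). Its paralogue Ptprn2 fell by 0.79 (SE 0.15, edgeR adjusted p = 0.00734). Chgb, a granin that packs vesicle cargo, fell by 0.50 (SE 0.12, edgeR adjusted p = 0.0211). Pcsk1, the prohormone convertase that makes the first cut, did not pass the test, at 69.8 to 175 CPM in nerve and 85.6 to 150 in neurofibroma. Without nerve 6 there were 9 lower and 1 higher of 18, beside 11.2% and 11.8% of all genes. The list's median log2 change was -0.34, and that of the 21 sensory neuron markers was -0.27, of which 2 were lower with nerve 6 and 9 without it. The part of less neuronal RNA in the vesicle genes was not tested.

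In MPNST the same list had 5 of 18 lower and 1 higher against neurofibroma, beside 16.8% and 25.3% of all genes, and 6 lower and 2 higher against nerve, beside 18.4% and 27.6%. Sensory neuron markers fell in the same comparisons, 13 and 14 of 21, and their part in these counts was not tested. Pcsk1 was at 0 to 1.66 CPM in MPNST and fell by 7.57 (SE 0.72, edgeR adjusted p = 2.063e-05). Pcsk2, the second convertase, had 2.97, 0.08, 0.42, 0.04, 0.36 and 4.61 CPM in MPNST against 131 to 181 in neurofibroma, and fell by 6.73 (SE 0.92, edgeR adjusted p = 2.305e-04). Cpe, which trims the cut peptides, fell by 1.61 (SE 0.51, edgeR adjusted p = 0.0236). Furin, a convertase of most cell types, rose by 2.21 (SE 0.58, edgeR adjusted p = 0.00971), or by 1.25 without MPNST 2 (0.00417). Against nerve Pcsk1 fell by 7.62, Pcsk2 fell by 7.07 and Cpe fell by 1.87, Furin rose by 1.83 (0.86 without MPNST 2), and Pam, which amidates peptides, rose by 0.82 (edgeR adjusted p = 0.0280). The Pam call was lost without MPNST 2 or any of nerve 2 to 5 (adjusted p from 0.0575 to 0.0679). Without the library labelled MPNST 6, where Chga was at 302 CPM and Scg2 at 107, 12 of 18 were lower and 2 higher in each of the 2 comparisons, beside 23.9% lower and 30.4% higher of all genes against neurofibroma and 25.1% and 31.6% against nerve. The sensory neuron markers then had 20 of 21 lower in each.

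Of 8 enzymes that degrade peptides 0 were called between neurofibroma and nerve by edgeR (3 at an unadjusted p under 0.05, and 2 lower by each of DESeq2 and limma-voom). Between MPNST and neurofibroma 3 of 8 were higher and 1 lower, beside 25.3% and 16.8% of all genes. Dpp4, a dipeptidyl peptidase that cleaves neuropeptide Y and other peptides, rose from 1.23 ± 0.67 to 42.5 ± 33.1 CPM (SD, n = 6), a log2 change of 5.73 (SE 1.13, edgeR adjusted p = 0.0022), or 4.91 without MPNST 2. Ace, the angiotensin-converting enzyme, had 104, 58.1, 46.3, 929, 49.9 and 7.18 CPM in MPNST 1 to 6 and 6.75 to 14.9 in neurofibroma. MPNST 4 was far above the others, and the library labelled MPNST 6 lay within the neurofibroma range. Ace rose by 4.37 (SE 0.95, edgeR adjusted p = 0.00367), and by 2.94 without MPNST 4 (0.00359). The aminopeptidase Anpep rose by 3.55 (SE 0.77, edgeR adjusted p = 0.00378). Mme, the neutral endopeptidase that cleaves substance P, fell from 116 ± 25.3 to 16.2 ± 10.8 CPM (log2 change -2.31, SE 0.79, edgeR adjusted p = 0.0345). That call was lost without any one of neurofibroma 1, 3, 4 and 6 or MPNST 1, 3, 4 and 5 (adjusted p from 0.0517 to 0.0642). Against nerve 3 were higher, Anpep, Ace and Dpp4, beside 27.6% of all genes, and 3 lower, beside 18.4%, Lnpep (-0.85), Ece2 (-2.75) and Mme (-2.32), with edgeR adjusted p from 0.00307 to 0.0410. Ace rose there by 4.44, and by 3.01 without MPNST 4. The 3 lower calls were each lost without one of several libraries: Ece2 without any one nerve library or MPNST 1, 3, 4 or 5, Lnpep without nerve 2, 3, 4 or 5 or MPNST 1, 3 or 5, and Mme without nerve 1, 3, 4 or 5 or MPNST 1, 3, 4 or 5 (adjusted p from 0.0531 to 0.0794).

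The other neuropeptide precursors were mostly too low to test, with 8 of 30 tested between neurofibroma and nerve. Adm, adrenomedullin, a peptide of the CGRP family that also signals through Calcrl, was the 1 call. It was at 0.59 to 1.24 CPM in nerve and 1.18 to 3.58 in neurofibroma, and rose by 1.33 (SE 0.31, edgeR adjusted p = 0.0157). Against nerve Adm also rose in MPNST, by 2.11 (SE 0.35, edgeR adjusted p = 6.657e-04). Penk, the enkephalin precursor, had 58.5, 6.38, 20.1, 444, 46.7 and 10.3 CPM in MPNST 1 to 6 against 0.82 to 6.00 in neurofibroma. All 6 libraries labelled MPNST were above every neurofibroma library, with MPNST 4 far above the rest. Penk rose by 5.49 (SE 1.04, edgeR adjusted p = 0.00172), and by 3.86 without MPNST 4 (9.62e-04). Nerve 6 had 38.2 CPM of Penk and nerve 1 to 5 had 0.54 to 3.50, so the change against nerve was 3.74 with nerve 6 and 6.17 without it (edgeR adjusted p = 0.0387 and 0.00259). The Penk call against nerve was lost without MPNST 4 (2.12, adjusted p = 0.144), MPNST 5 (0.0510) or any one of nerve 1 to 5 (0.0686 to 0.0767). Pthlh rose by 2.51 against neurofibroma (SE 0.60, edgeR adjusted p = 0.00625) and by 1.79 against nerve (SE 0.60, 0.0273), a call lost without nerve 1, 3, 4 or 5 or MPNST 3, 4 or 5 (adjusted p from 0.0534 to 0.0628). Nmb, the neuromedin B gene of sensory neurons, fell by 5.10 (SE 0.37, edgeR adjusted p = 2.88e-06), Nts fell by 5.02 and Nppb fell by 2.06, and all 3 also fell against nerve by edgeR. Nts varied widely in nerve (42.6 ± 46.5 CPM, SD), and limma-voom did not call it against nerve (-4.89, SE 2.52, adjusted p = 0.106).

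Within the 12 trigeminal libraries, genes most like each member were ranked by Pearson r of log2(TMM-scaled CPM + 1) among 11790 genes with a mean of at least 5 CPM. These points share library and tissue composition and are a description only. Calca was most like Cpped1 (r = 0.92), Gfra3 (0.90), a receptor subunit of peptidergic nociceptors, and Anxa2 (0.90). Without nerve 6 these were at 0.83, 0.82 and 0.77. Calcb was most like Tspan8 (0.92), Rgs4 and Gna14, and Tac1 most like Tuba1a (0.93), S100a10 and Hint1. Adcyap1 was most like Ift88 (0.97), Lxn and Nup93, Gal most like Letmd1 (0.91), Jpt1 and Npr2, and Vip most like Nqo1 (0.93), Rpl36al and Mrps28. Sst was most like Shisa6 (0.97), Grip2 and Sez6l, which fell to 0.81, 0.80 and 0.78 without nerve 6. Npy did not reach the minimum level. Among the members, Calca and Tac1 had the highest r (0.84), then Calcb and Adcyap1 (0.81), and Calca and Sst the lowest (-0.71), which was -0.06 without nerve 6. Leaving out nerve 6 kept Calca and Tac1 highest (0.84), put Calca and Vip next (0.81, from 0.39) and left Calcb and Adcyap1 at 0.74.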

How the data were processed

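Poly(A) RNA of 18 samples was sequenced. The authors deposited estimated counts for each gene, with decimals and without normalization. The submitters' processing notes name the build GRCm39, DESeq2, FastQC and Salmon 1.4.0. Groups were read from the labels and columns were matched to samples by name. For the annotation and Salmon's settings: not given in the sources used here. Counts were rounded to whole numbers, and the table held 0 rows without a gene name. CPM is a count over its library's total, without further scaling.

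Each pair of groups was fitted alone in R 4.3.3 by edgeR 4.0.16 (two-sided quasi-likelihood test after TMM scaling and filterByExpr), with no covariate; calls are at a Benjamini-Hochberg adjusted p under 0.05 over all genes tested. The Calca to Calcb ratio was tested by exact permutation of log2 ratios of CPM. DESeq2 1.42.0, limma 3.58.1 (voom with quality weights), other normalizations and filters and left-out libraries were tried. The edgeR fit was tested on simulated data. The 8 members and 19 gene lists (221 entries, 220 in the table) were chosen with earlier results of these data known. All members are named; of each pathway list the 3 called genes with the smallest p in each direction. Pou4f1, Scn10a, Isl1, Nos1, Chga, Scg2, Npy1r, Vipr2, Ramp1 and Adcyap1r1 were chosen after their values were seen. Libraries had 13886399 to 23652959 counts, a relative counting error of 31.6% at 10 counts, and intervals and floors of 3 counts cover counting error only, since no molecular identifiers are described. No 2 libraries were duplicates (lowest chi-square per gene 18.8). Promoters are from RefSeq's GRCm38.p6 table, a build other than the authors'.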

Additional observations from a re-analysis of the deposited data

Results flagged for a closer look

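Within each group of 6 libraries, the highest and the lowest value of each of the 8 genes was checked for a gap to its neighbour that was large against the group's range (Dixon's ratio over 0.625). Of 24 groups checked, 10 had such a library. The usual rate of about 1 in 20 assumes independent, normally distributed values. These groups share libraries and some hold values of 0, so the count was not set against chance. The library labelled MPNST 6 was the highest of its group for Adcyap1 at 538.6 CPM (next 1.20), Vip at 57.8 CPM (next 0.14), Npy at 36.6 CPM (next 0.17), Sst at 3.88 CPM (next 0.07) and Gal at 2.93 CPM (next 0.55). In nerve 6, Sst was highest at 83.6 CPM (next 5.51) and Vip at 8.71 CPM (next 1.90), and Calcb was lowest at 29.7 CPM (next 42.7). Gal was highest in neurofibroma 5 at 11.5 CPM (next 5.42), and Calcb in MPNST 5 at 0.58 CPM (next 0.14), from 8 counts.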

How the results depend on the processing

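No paired analysis was possible because replicate numbers were given in accession order and pair nothing across groups. Of all recomputed results, 513 settings kept direction and side of the threshold, 25 lost a call, 10 gained one, 9 moved a count by over 1.5 times and 20 turned sign. Members called between neurofibroma and nerve were 0 to 1 when each library was left out in turn, with 1 (Vip) without nerve 6 and 1 without both nerve 6 and neurofibroma 1. Over all genes these last 2 fits called 3817 of 16631 and 3421 of 16455 either way. Against neurofibroma, MPNST calls were 4 with all libraries, 3 to 7 with 1 library left out, 8 without MPNST 2 and 6 and 8 without MPNST 2, 3 and 6. Calls of lower over all genes also moved, from 2772 of 16537 with all libraries to 2408 to 4013 with 1 left out. They were 4928 of 17280 without MPNST 2 and 6 and 5525 of 17900 without MPNST 2, 3 and 6. Against nerve the member calls were 5, and 3 to 6 with 1 left out (3 without nerve 6, MPNST 1 or MPNST 3). Over all genes, calls of lower there were 3007 of 16384, and 2680 to 4180 with 1 left out. A split of columns into 2 runs of ascending names, which no label explains, was added after seeing the data and leaves 3 libraries a group. Run 2 gave 3 calls of MPNST against nerve, beside 1136 of 16297 genes called either way. Within runs the Calca to Calcb difference was 0.40 (exact permutation p = 0.1, the smallest 3 against 3 allow) and 0.45 (p = 0.2).

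Between neurofibroma and nerve, none of the log2 changes that turned sign was called. Calca was -0.0117 in run 1. Calcb ran from -0.19 to 0.0553 with libraries left out and was 0.23 in run 2. Adcyap1 was 0.30 in run 2. Gal ran from -0.0179 to 0.35 and was -0.29 in run 1. Npy ran from -0.53 to 0.14, and was 0.25 with limma-voom and 1.79 in run 2. Adcyap1 against neurofibroma ran from -7.59 to 0.75 in MPNST with 1 library left out. It was -7.38 without MPNST 2 and 6, -7.19 without MPNST 2, 3 and 6 and -6.88 in run 1, which lacks the library labelled MPNST 6. With limma-voom it was -7.83, and what moved that value was not tested. Against nerve the same values were -7.80 to 0.50, -7.56, -7.40, -7.60 and -7.99.

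Calls over all genes between neurofibroma and nerve moved from 2295 to 3509 with DESeq2, 4026 with limma-voom, 1438 with a filter of at least 1 count, 2 when all 18 samples shared one fit, and 0 and 5 within runs. Leaving out 1 library gave 1147 (neurofibroma 4), 1355 (neurofibroma 2), 1471 (neurofibroma 6), 1404 (nerve 5) and 3817 (nerve 6). Between MPNST and neurofibroma they moved from 6948 to 11247 without MPNST 2, 3 and 6, 4375 in run 1 and 1473 in run 2, and between MPNST and nerve from 7534 to 1136 in run 2. Other causes were not tested. Genes under about 1 CPM rest on few counts.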
